A study of Mus musculus with 8 samples.

Results

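The gene for the transcription factor NRF2, Nfe2l2, and 9 genes that NRF2 is known to activate were followed in mouse liver: Nqo1, Gclc, Gclm, Txnrd1, Srxn1, Hmox1, Slc7a11, Gpx2 and Cbr3. They were taken by name, as 10 of the 35204 gene rows of a deposited table of normalised counts, and all 10 passed the filter on low values. The table covers 8 poly-A RNA libraries made from pieces of liver of wild type C57BL/6J mice. The 3 control libraries are labelled as untreated. The 5 TAZ-CCl4 libraries came from livers given the construct EF1a-TAZS89A by HTVI, which in this field stands for hydrodynamic tail vein injection, and CCl4, a hepatotoxin, on 30 occasions at 3 a week over 10 weeks. TAZ is a transcriptional coactivator of the Hippo pathway, encoded by Wwtr1, and S89A removes a phosphorylation site through which the pathway restrains it. In the construct's name EF1a is a broadly active promoter, and hydrodynamic injection is known to deliver DNA to a part of the hepatocytes, and the share of cells that carried the construct was not measured. The controls are not labelled as having received a plasmid, a vehicle or CCl4, so effects of TAZ, of CCl4 and of the injections cannot be told apart, and neither can the group and the library project, which differs between the groups. The sources used here do not give age, sex, the time since the last CCl4 dose or whether a piece was tumour. The labels also do not say that each library is a separate mouse. The p-values therefore set group differences only against the spread among these samples, and that spread may be technical.

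NRF2 is held at a low level by KEAP1, which presents it to the CUL3 ubiquitin ligase for degradation. Electrophiles and oxidants modify KEAP1, NRF2 then accumulates, pairs with a small MAF protein and binds antioxidant response elements of genes for glutathione synthesis, thioredoxin reduction, quinone reduction and haem breakdown. Control of NRF2 is thus largely at the level of the protein, which the libraries do not measure. In the liver the pathway is known for protecting hepatocytes against reactive metabolites of drugs and solvents, and it is often active in hepatocellular carcinoma.

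Of the 10 genes, 3 rose and 0 fell at the authors' scaling, where 32.4% of the 14171 genes tested were called higher and 29.8% lower (limma, Benjamini-Hochberg adjusted p under 0.05). The 3 were Cbr3, Gpx2 and Hmox1. The count became 5 without TAZ-CCl4 replicate 2, with Nqo1 and Slc7a11 added, and 5 without TAZ-CCl4 replicate 4, with Nfe2l2 and Nqo1 added. Of the 14171 genes tested, 4586 and 4511 were called higher without these replicates. The median log2 fold change of the 10 genes was 0.68, beside 0.03 over all genes tested. In 3 of the 10 genes every TAZ-CCl4 library lay above every control, a pattern that 30.7% of tested genes showed, and in 1, Gclm, every TAZ-CCl4 library lay below, as in 29.4% of tested genes.

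These counts depended on how the libraries were scaled, because the normalised totals were 29819996 to 35055251 in the controls and 12373230 to 14150070 in the TAZ-CCl4 libraries. Urinary protein (Mup) genes made up 10.6% to 24.1% of the control signal and at most 0.139% of the TAZ-CCl4 signal, and mitochondrial transcripts 11.7% to 14.3% and 3.66% to 6.96%. At equal upper quartiles the median over all tested genes moved to 0.27 on the log2 scale, at totals that leave out Mup and mitochondrial genes to 0.85 and at equal totals to 1.26. The 10 genes then had 7, 9 and 9 members higher and 0 lower, beside 39.7%, 62.9% and 76.3% of all tested genes higher and 21.9%, 10.7% and 6.37% lower, with medians of 0.92, 1.51 and 1.93. After quantile normalisation 6 were higher and 0 lower, beside 27.8% and 29.8%, with a median of 0.72 against -0.05 for all tested genes. Under each of these 5 scalings the median of the 10 genes lay above that of all tested genes. Apart from quantile normalisation, these scalings use a single factor per library, which moves the 10 genes and all tested genes nearly alike. They are therefore not separate checks of that order. Where no scaling is named below, values are as deposited.

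**Figure D1:**
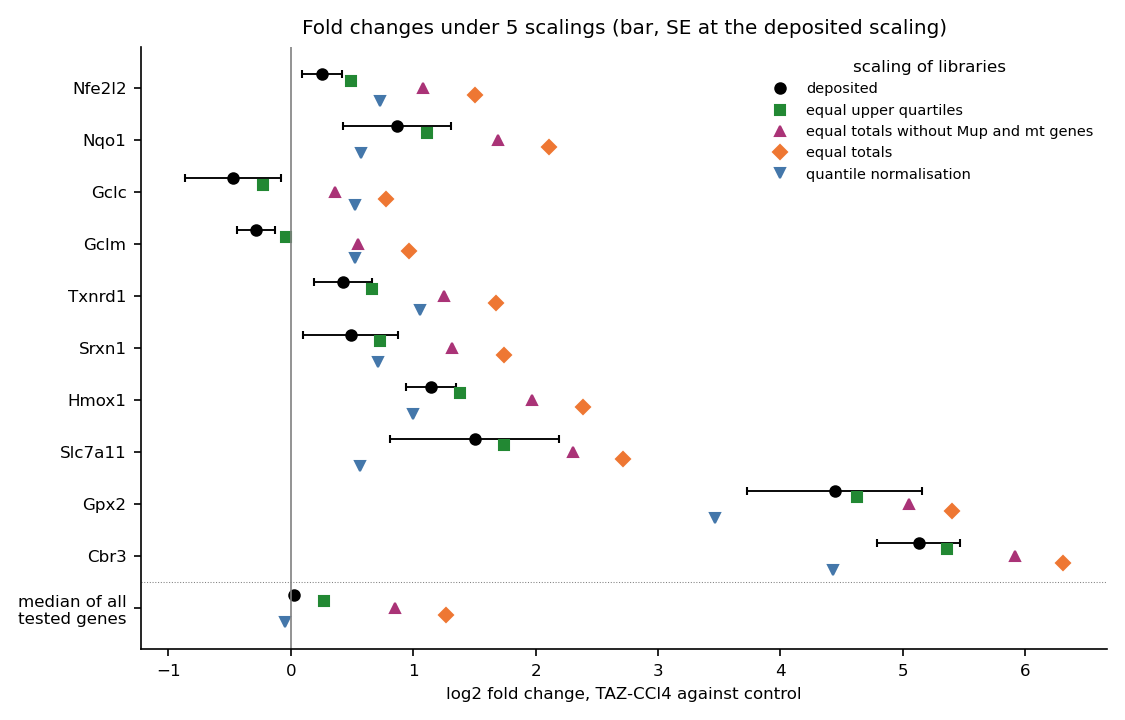
Log2 fold change of each gene, TAZ-CCl4 against control on the x axis, under 5 scalings of the libraries, with the median of all tested genes in the bottom row and bars for the SE at the deposited scaling. Cbr3, Gpx2 and Hmox1 are called higher under every one of the 5 scalings, while Gclc and Gclm change sign between them.

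As a check of the labels, Wwtr1 (mm10 chromosome 3, 57455649 to 57575910) measured 463, 358 and 279.9 in control livers, against 9021, 4339, 5114, 4892 and 5299 in TAZ-CCl4 replicates 1 to 5, and transcripts of the construct and of the endogenous gene were not separated. The liver label held, since all 6 hepatocyte markers, Alb among them, were detected in every library. Their summed level was 1665695 to 2128187.5 in the controls and 659888 to 948183 in the TAZ-CCl4 libraries. Of the 6, 5 were called lower, beside 29.8% of all tested genes. At equal totals 2 were lower and 0 higher, beside 6.37% and 76.3%. In bulk tissue fewer cells of a type and less RNA per cell cannot be told apart, and this holds for every gene below.

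Promoter sequence is shown for the members whose windows hold a binding motif related to the pathway, and for Cbr3, the member with the largest rise. RefSeq windows (build GRCm38.p6, the build also called mm10) were found for 8 of the 10 genes, in 10 windows, and the 250 bases before each start were searched on both strands. The motifs were the antioxidant response element core TGACNNNGC, the AP-1 site TGANTCA and the TEAD core GGAATG, present in 10.2%, 6.75% and 12.6% of all 32851 windows of that length. The sequences run 5′ to 3′ on the gene's strand, and capitals mark the match. TGACNNNGC lay in the windows of Nfe2l2, Gclm and Txnrd1, the latter in the second of its 3 windows, TGANTCA at 2 places in that of Srxn1, and GGAATG in none of the 10. The windows are chr2:75704664-75704913 (minus strand) for Nfe2l2, chr3:122245307-122245556 (plus strand) for Gclm, chr10:82858956-82859205 (plus strand) for Txnrd1, chr2:152105274-152105523 (plus strand) for Srxn1 and chr16:93682969-93683218 (plus strand) for Cbr3.
Nfe2l2: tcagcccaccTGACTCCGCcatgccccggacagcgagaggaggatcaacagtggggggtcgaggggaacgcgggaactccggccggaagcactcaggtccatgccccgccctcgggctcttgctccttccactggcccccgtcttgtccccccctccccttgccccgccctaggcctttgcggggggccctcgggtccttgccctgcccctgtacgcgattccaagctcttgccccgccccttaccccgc
Gclm: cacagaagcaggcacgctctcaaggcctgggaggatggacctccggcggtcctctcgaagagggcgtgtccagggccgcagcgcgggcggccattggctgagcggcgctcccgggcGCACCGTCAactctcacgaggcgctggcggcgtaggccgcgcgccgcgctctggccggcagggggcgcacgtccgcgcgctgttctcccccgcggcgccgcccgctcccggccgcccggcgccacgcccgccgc
Txnrd1: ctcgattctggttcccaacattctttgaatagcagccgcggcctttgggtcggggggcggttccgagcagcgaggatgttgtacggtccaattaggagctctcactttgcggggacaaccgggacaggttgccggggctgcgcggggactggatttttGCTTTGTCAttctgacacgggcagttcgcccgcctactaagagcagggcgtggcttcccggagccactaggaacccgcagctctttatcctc
Srxn1: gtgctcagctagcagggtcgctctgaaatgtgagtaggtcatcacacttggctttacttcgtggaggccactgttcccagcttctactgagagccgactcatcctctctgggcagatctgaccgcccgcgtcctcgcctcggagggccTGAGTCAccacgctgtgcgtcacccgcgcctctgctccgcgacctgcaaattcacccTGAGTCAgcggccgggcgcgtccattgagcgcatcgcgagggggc
Cbr3: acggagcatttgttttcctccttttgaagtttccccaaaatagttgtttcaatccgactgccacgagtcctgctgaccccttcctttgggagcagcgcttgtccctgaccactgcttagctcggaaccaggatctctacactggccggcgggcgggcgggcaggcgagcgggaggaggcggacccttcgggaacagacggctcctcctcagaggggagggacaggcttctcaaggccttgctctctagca
The Nfe2l2 match, TGACTCCGC, runs from position -240 to -232, counted back from the start. In Gclm and Txnrd1 the match is on the opposite strand, as TGACGGTGC and TGACAAAGC, and runs from -134 to -126 and from -92 to -84. Both Srxn1 matches read TGAGTCA, a sequence that fits the motif on either strand, and run from -102 to -96 and from -45 to -39. None of the 3 motifs was present in the window of Cbr3. A match is a description of these letters. Elements farther from the start and looser forms of the 3 motifs were not searched, so a window without a match may still hold such a form.

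Nfe2l2 (chromosome 2, 75675513 to 75704641), the gene of the factor itself, measured 1330.3, 1737 and 1432 normalised counts in control livers, against 1782, 2036, 1790.1, 1331 and 2036 in TAZ-CCl4 replicates 1 to 5. Replicate 4 lay at the level of the lowest control and the other 4 TAZ-CCl4 libraries lay above all controls, so the groups overlapped. The means were 1499.7 ± 211 (SD, n = 3) and 1795 ± 288 (SD, n = 5), and the log2 fold change of 0.25 ± 0.16 (SE) did not pass (limma, adjusted p = 0.200). It passed as higher under the other 4 scalings, with log2 fold changes from 0.50 upward, and without TAZ-CCl4 replicate 4, at 0.36 (limma, adjusted p = 0.0347).

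Keap1 (chromosome 9, 21229730 to 21239361), the gene of the NRF2 inhibitor, measured 1015, 1119 and 1071 in control livers, against 559.5, 770.1, 682, 731 and 669 in TAZ-CCl4 replicates 1 to 5. It fell by 0.65 ± 0.13 on the log2 scale (limma, adjusted p = 0.00140), but was called higher, at 0.60, when totals were made equal, and was uncalled at 0.18 when those totals left out Mup and mitochondrial genes. After quantile normalisation Keap1 was called lower, at -0.41. The ratio of Nfe2l2 to Keap1 within a library is not moved by a single factor per library, as the deposited, upper quartile and total scalings use, but can be by quantile normalisation. As deposited it was 1.31, 1.55 and 1.34 in control livers, against 3.18, 2.64, 2.63, 1.82 and 3.04 in TAZ-CCl4 replicates 1 to 5, all 5 above all 3 controls. The log2 ratio differed by 0.90 (exact two-sided permutation test, p = 0.0357, the smallest that 3 against 5 libraries allow, and 0.0952 after Benjamini-Hochberg adjustment over the 8 ratios computed).

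**Figure D2:**
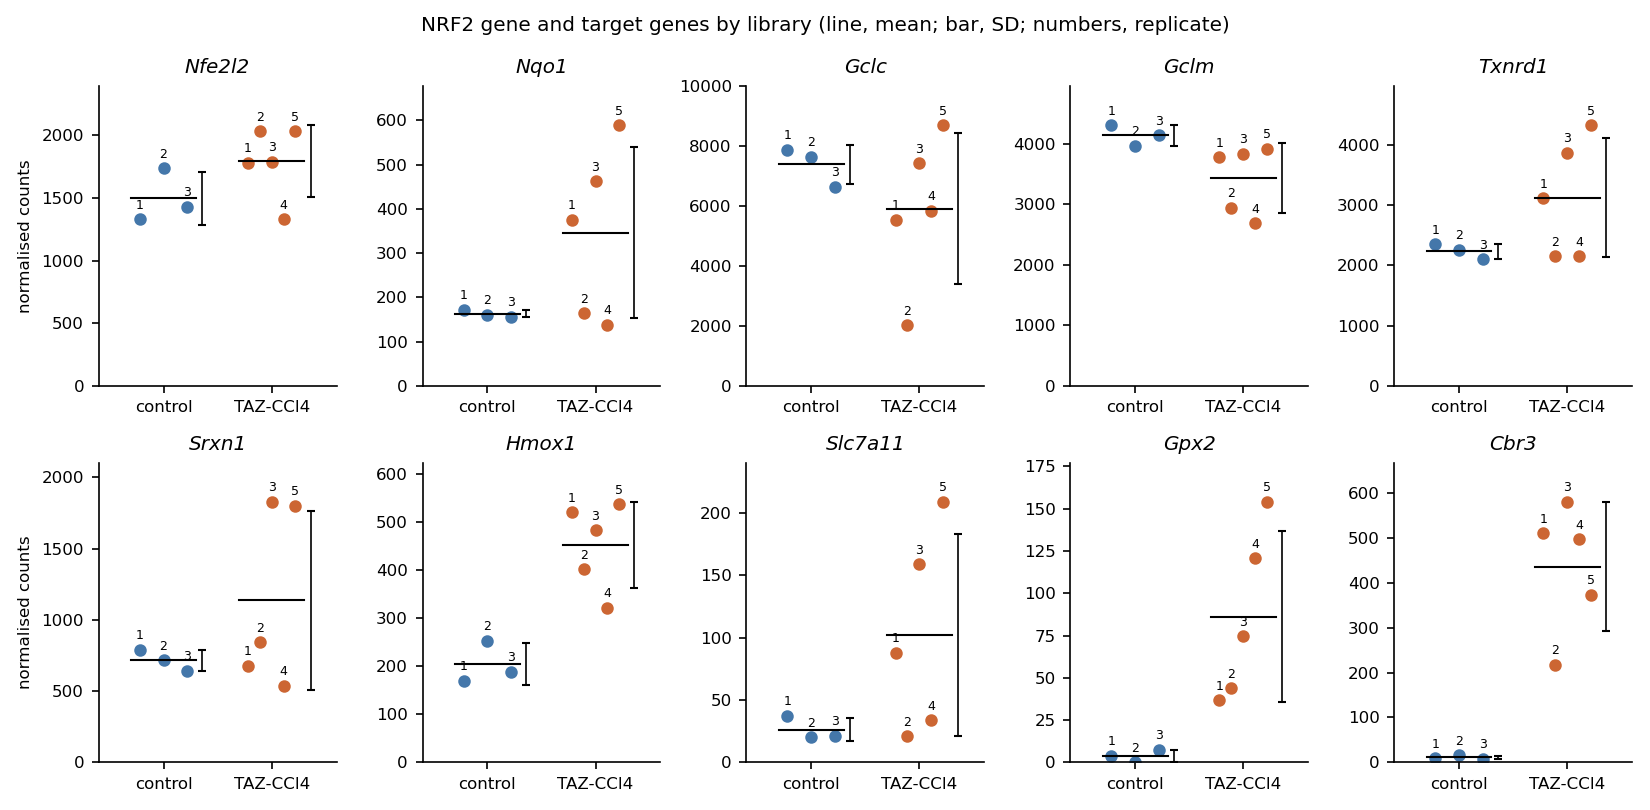
Normalised counts of the 10 genes in each library, on linear axes that start at 0, with replicate numbers beside the points, a line at the group mean and a bar for the SD. For Cbr3, Gpx2 and Hmox1 all 5 TAZ-CCl4 libraries sit above the 3 controls, and for Gclm all 5 sit below at the deposited scaling, whereas for Nqo1 and Slc7a11 replicates 2 and 4 sit beside the controls.

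The set holds a carbonyl reductase that rose and a quinone reductase that did not pass. Cbr3 (chromosome 16, 93683215 to 93690990), the former, measured 9.46, 15.7 and 8.42 in control livers, against 511, 217, 580.4, 496 and 373 in TAZ-CCl4 replicates 1 to 5. Even the lowest treated library, replicate 2, was far above the highest control. The group means were 11.2 ± 3.95 (SD, n = 3) and 436 ± 143 (SD, n = 5), and the gene rose by 5.13 ± 0.34 on the log2 scale (limma, adjusted p = 1.42e-06).

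Its paralog Cbr1 (chromosome 16, 93605853 to 93610505), which lies nearby on the chromosome, rose less, from 1578 ± 203 to 3799.7 ± 573, a log2 fold change of 1.26 ± 0.16 (limma, adjusted p = 6.60e-05). Reads shared between these similar genes could be split either way by the quantification. The ratio of Cbr3 to Cbr1 was 0.00703, 0.00942 and 0.00489 in control livers, against 0.141, 0.0547, 0.142, 0.112 and 0.129 in TAZ-CCl4 replicates 1 to 5, so the groups did not overlap (exact two-sided permutation test, p = 0.0357, adjusted p = 0.0952).

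Nqo1 (chromosome 8, 107388225 to 107403206), which encodes a quinone reductase widely used as a readout of NRF2, stood at 172, 161 and 156 in the controls. In TAZ-CCl4 replicates 1 to 5 it stood at 375, 165, 463, 139 and 589.5. Replicates 1, 3 and 5 lay above all controls, replicate 2 lay among them and replicate 4 below them. The log2 fold change of 0.87 ± 0.44 did not pass (limma, adjusted p = 0.111). It passed without TAZ-CCl4 replicate 2, at 1.08 (limma, adjusted p = 0.0459), and without replicate 4, at 1.14 (limma, adjusted p = 0.0260). It also passed at the 3 scalings to equal upper quartiles or totals and not after quantile normalisation. The SD of its log2 values was 0.92 among the TAZ-CCl4 libraries and 0.07 among the controls. The ratio of Nqo1 to Nfe2l2 ranged from 0.0925 to 0.129 in the controls and from 0.0808 to 0.290 in the TAZ-CCl4 libraries and overlapped (exact two-sided permutation test, p = 0.321, adjusted p = 0.643).

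The genes of glutathione synthesis gave no call at the deposited scaling. Gclc (chromosome 9, 77754535 to 77794485), the catalytic subunit of glutamate-cysteine ligase, which catalyses the rate-limiting step, measured 7872, 7637 and 6643 in control livers, against 5547, 2019, 7432, 5843 and 8696 in TAZ-CCl4 replicates 1 to 5. Replicates 1, 2 and 4 were below all controls, with replicate 2 the lowest, and replicate 5 was above all controls. Its log2 fold change of -0.47 ± 0.39 did not pass (limma, adjusted p = 0.319), and it was not called under any of the 5 scalings.

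Gclm (chromosome 3, 122245557 to 122270732), the modifier subunit of the same enzyme, measured 4307, 3968 and 4146 in control livers, against 3779.6, 2945, 3840.1, 2687 and 3918 in TAZ-CCl4 replicates 1 to 5. All 5 TAZ-CCl4 values were below all control values as deposited, yet the log2 fold change of -0.29 ± 0.15 did not pass (limma, adjusted p = 0.131). The sign turned with the scaling, and Gclm was called higher at equal totals (0.97), at totals that leave out Mup and mitochondrial genes (0.55) and after quantile normalisation (0.52). Exons of Gclm overlap the annotated pseudogene Gm6061, whose mean was 25.2 normalised counts. The ratio of Gclm to Gclc was 0.547, 0.520 and 0.624 in control livers, against 0.681, 1.46, 0.517, 0.460 and 0.451 in TAZ-CCl4 replicates 1 to 5. The ratios of the groups overlapped, with replicate 2 at the top (exact two-sided permutation test, p = 0.964, adjusted p = 0.964), and the mean difference of the log2 ratios was 0.18 with and -0.11 without that library.

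Slc7a11 (chromosome 3, 49892526 to 50443614) encodes the cystine carrier of system xc-, which supplies cysteine for glutathione. It measured 37.4, 20.1 and 21.6 in control livers, against 88.2, 21.2, 159, 33.8 and 209 in TAZ-CCl4 replicates 1 to 5. Replicates 1, 3 and 5 lay above all controls and replicates 2 and 4 within their range, a 9.86-fold span among treated livers. The log2 fold change of 1.5 ± 0.69 did not pass (limma, adjusted p = 0.0805) but passed without TAZ-CCl4 replicate 2, at 1.94 (limma, adjusted p = 0.0141), and at the same 3 scalings as Nqo1.

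Slc3a2, the heavy chain that carries Slc7a11 and other amino acid transporters to the membrane, measured 772, 765 and 762 in control livers, against 2123, 1084, 1027, 1163 and 1029 in TAZ-CCl4 replicates 1 to 5, where replicate 1 stood apart. It rose by 0.68 ± 0.23 on the log2 scale (limma, adjusted p = 0.0223). Leaving out any 1 of the 3 controls removed the call, with adjusted p-values from limma of 0.0604 to 0.0624. The ratio of Slc7a11 to Slc3a2 overlapped between the groups (exact two-sided permutation test, p = 0.5, adjusted p = 0.714).

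Among the genes of thioredoxin-based reduction, Txnrd1 (chromosome 10, 82833951 to 82897712), the cytosolic thioredoxin reductase, measured 2346, 2254 and 2102 in control livers, against 3111, 2148, 3864, 2152 and 4321 in TAZ-CCl4 replicates 1 to 5. Replicates 1, 3 and 5 exceeded all controls, and replicates 2 and 4 lay within the control range. Its log2 fold change was 0.42 ± 0.24 and did not pass (limma, adjusted p = 0.143), although it was called higher under the other 4 scalings, at 0.67 to 1.67.

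Srxn1 (chromosome 2, 152105516 to 152111376), the sulfiredoxin that restores overoxidised peroxiredoxins, measured 791, 717 and 643 in control livers, against 678, 842, 1830.5, 539.7 and 1801 in TAZ-CCl4 replicates 1 to 5. Replicates 3 and 5 were high, replicate 2 was just above the controls, replicate 1 within their range and replicate 4 below it. The log2 fold change of 0.49 ± 0.39 did not pass (limma, adjusted p = 0.294), but was called higher at equal totals with and without Mup and mitochondrial genes. The ratio of Srxn1 to Txnrd1 was 0.306 to 0.337 in the controls and 0.218 to 0.474 in the TAZ-CCl4 libraries, on both sides of the control range (exact two-sided permutation test, p = 0.857, adjusted p = 0.964).

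Hmox1 (chromosome 8, 75093621 to 75100589), the inducible haem oxygenase, measured 169.8, 253 and 188 in control livers, against 519, 401, 482, 321 and 536 in TAZ-CCl4 replicates 1 to 5, with no overlap. The group means were 204 ± 43.6 (SD, n = 3) and 452 ± 89.7 (SD, n = 5), and the gene rose by 1.14 ± 0.21 on the log2 scale (limma, adjusted p = 7.62e-04). Hmox1 is also strongly expressed by macrophages that clear red cells. Of 7 macrophage markers, 4 rose, 0 fell and 3 did not pass, beside 32.4% higher and 29.8% lower over all tested genes. At equal totals 5 were higher and 0 lower, beside 76.3% and 6.37%. None of the 7 was at 0 throughout a group. Those not called as deposited were Clec4f, Cd5l and Marco, with log2 fold changes of -2.35, -0.39 and 0.91. Clec4f lay below all controls in 4 of the 5 TAZ-CCl4 libraries. The summed level of the 7 markers was 1582 to 2805 in the controls and 8499.9 to 17749.7 in the TAZ-CCl4 libraries. The lowest treated sums were in replicates 2 and 4, the same libraries in which Hmox1 was lowest. Of the single markers that rose, Csf1r and Adgre1 were higher in replicate 1 (5603 and 556) than in replicate 4 (3152 and 483). Lyz2 was slightly lower in replicate 1 (6490 against 6615), and Cd68 was level, at 620 in both. The part of macrophages in the rise of Hmox1 was not tested. The ratio of Hmox1 to Nqo1 overlapped between the groups, at 0.987 to 1.57 and 0.910 to 2.44 (exact two-sided permutation test, p = 0.536, adjusted p = 0.714).

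Gpx2 (chromosome 12, 76792333 to 76795554), a glutathione peroxidase of gut and other epithelia, was near the limit of detection in the controls, at 3.93, 0 and 7.48, against 36.9, 44.0, 74.8, 121 and 154 in TAZ-CCl4 replicates 1 to 5. The lowest treated library was well above the highest control. Group means were 3.80 ± 3.74 (SD, n = 3) and 86.1 ± 50.4 (SD, n = 5), and the control mean was 1.96 without control replicate 3. It rose by 4.44 ± 0.71 on the log2 scale (limma, adjusted p = 3.53e-04). That size is uncertain, being 3.54 without control replicate 2, which is listed at 0, 5.09 without control replicate 3, 3.28 with a pseudocount of 5 in place of 1 and 3.46 after quantile normalisation. The processed pseudogene Gpx2-ps1 on chromosome 7 was listed at 0 in 7 of the 8 libraries and at 1.03 in the other.

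Gpx1 (chromosome 9, 108338903 to 108340343), the main glutathione peroxidase of hepatocytes, moved the other way, from 39771 ± 273 to 6760.3 ± 2335, a log2 fold change of -2.62 ± 0.25 (limma, adjusted p = 1.24e-05) and -1.37 at equal totals. The ratio of Gpx2 to Gpx1 was at most 1.88e-04 in the controls and 0.00754 to 0.0224 in the TAZ-CCl4 libraries (exact two-sided permutation test, p = 0.0357, adjusted p = 0.0952). Of 6 cholangiocyte markers, all 6 rose, beside 32.4% of all tested genes, and all 6 also at equal totals, beside 76.3%. Their summed level went from 1867 to 2551 in the controls to 33608 to 119830.5 in the TAZ-CCl4 libraries, and none was at 0 throughout a group. Most of that sum was Spp1, and without it the sums were 263 to 336 and 1904 to 6873. Krt19, 1 of the 6, overlapped between the groups as deposited. After quantile normalisation it was not called, at 0.75 (limma, adjusted p = 0.253). The part of biliary or other epithelial cells in the rises of Gpx2 and Cbr3 was not tested.

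**Figure D3:**
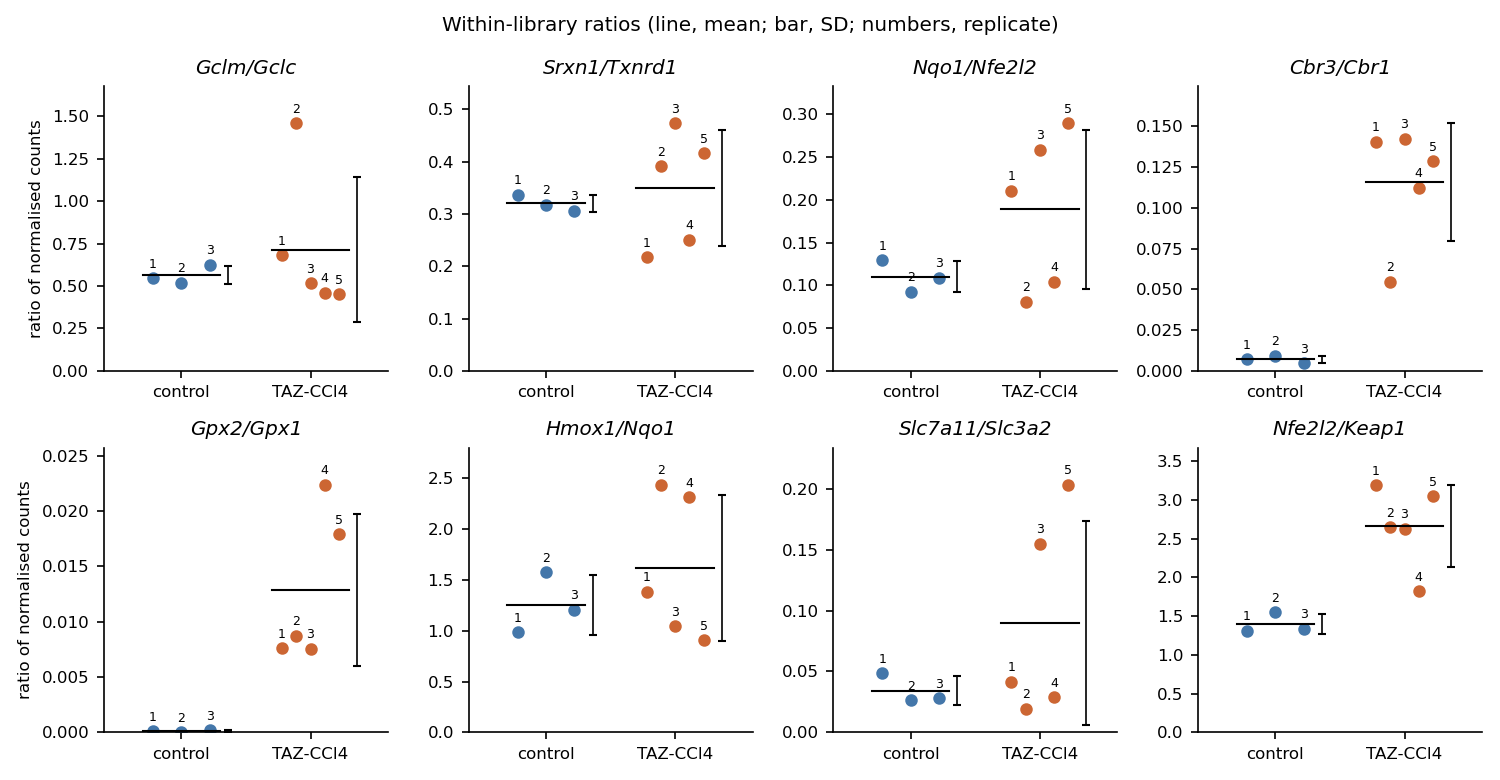
Ratios of the normalised counts of gene pairs within each library, on linear axes from 0, with replicate numbers, a line at the group mean and a bar for the SD. The groups do not overlap for Cbr3/Cbr1, Gpx2/Gpx1 and Nfe2l2/Keap1 and overlap for the other 5 ratios.

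For most of the 10 genes the treated libraries spread more widely than the controls, with Gpx2 as an exception on the log2 scale. The median SD of log2 values over the 10 genes was 0.69 among the TAZ-CCl4 libraries and 0.17 among the controls, beside 0.32 and 0.19 over all tested genes. Particular libraries were often at the top or the bottom. Replicate 5 was the highest TAZ-CCl4 library for 7 of the 10 genes, whereas it was the highest for 14.2% of all tested genes. Replicate 4 was the lowest for 5 of the 10 and replicate 2 for 4, against 23.5% and 24.2% of all tested genes. The exceptions were Nfe2l2, highest in replicate 2, Srxn1 and Cbr3, highest in replicate 3, and Gpx2, lowest in replicate 1. Spans were widest for Slc7a11, Gclc (4.31-fold), Nqo1 (4.25-fold) and Gpx2 (4.18-fold), and narrowest for Gclm (1.46-fold) and Nfe2l2 (1.53-fold).

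Wwtr1 was highest in replicate 1, a library that was not the highest for any of the 10 genes. Hepatocyte marker sums were highest in replicates 3 (948183) and 5 (864104) and stood at 659888 to 683249 in the other 3, and Mup genes made up 0.139% and 0.0950% of the signal there against at most 0.00767% in the other 3. Most of the hepatocyte sum was Alb, and without it the order differed, with replicate 2 highest (212139), then replicates 3 (162583) and 5 (150615), and replicates 4 (108121) and 1 (96326) lowest. The summed proliferation markers Mki67 and Top2a were also highest in replicates 3 (2315) and 5 (2446), against 718 to 1564 in the other 3. The parts of the Wwtr1 level, of hepatocyte share and of proliferation in the order of the libraries were not tested.

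**Figure D4:**
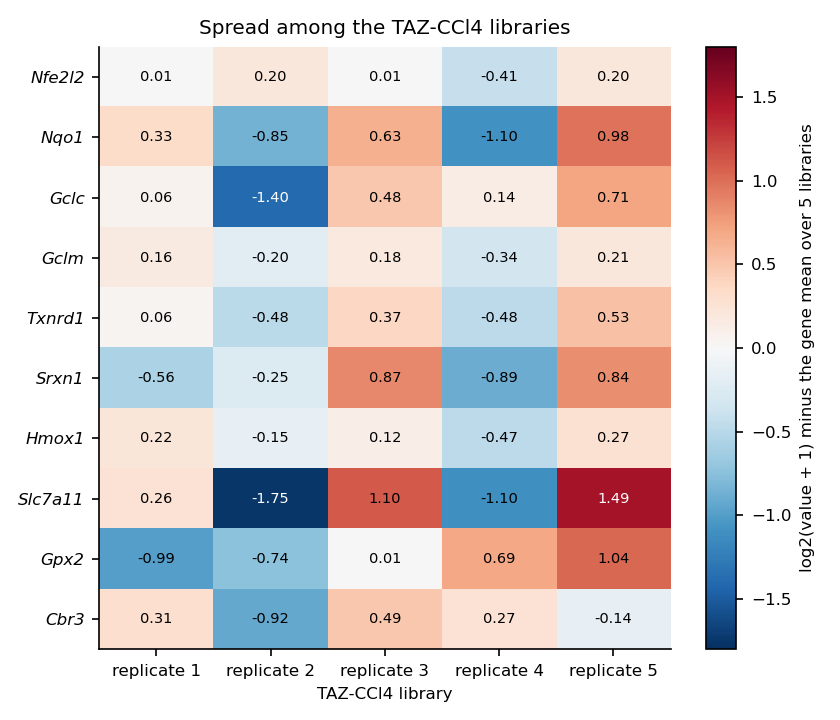
Log2(value + 1) of each gene in the 5 TAZ-CCl4 libraries, with the gene's mean over these libraries subtracted and the difference printed in each cell. Replicate 5 is above the mean for 9 of the 10 genes and replicate 2 below it for 9, and Slc7a11 has the widest range, from -1.75 to 1.49.

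Of 19 genes that regulate NRF2 or bind DNA with it, all tested, 5 rose and 7 fell, with a median log2 fold change of -0.07, beside 32.4% higher and 29.8% lower over all tested genes. When totals were made equal 17 were higher and 1 lower, beside 76.3% and 6.37%, and by quantile normalisation 5 and 3, beside 27.8% and 29.8%. The largest rises by the naming rule were those of the small MAF partners Maff, from 111 ± 48.9 (SD, n = 3) to 415 ± 225 (SD, n = 5), and Mafk, from 273 ± 25.8 to 510.1 ± 180.2. Log2 fold changes were 1.86 ± 0.39 and 0.84 ± 0.24 (limma, adjusted p = 0.00190 and 0.0115), and both were highest in replicate 1. Another small MAF gene, Mafg, fell by 0.86 at the deposited scaling but was called higher, at 0.39, at equal totals.

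The largest falls were those of Bach2, a repressor of the BACH family best known from B cells, from 264 ± 34.1 to 59.4 ± 15.2, and Syvn1, a ubiquitin ligase of the endoplasmic reticulum that can degrade NRF2, from 2267 ± 217 to 1194 ± 345. Bach2 had a log2 fold change of -2.17 ± 0.26 (limma, adjusted p = 5.64e-05) and was lower under each of the 5 scalings. Of 3 B cell markers, none was called in either direction at the deposited scaling, beside 32.4% higher and 29.8% lower over all tested genes. The sums of the 3 were 33.8 to 97.8 in the controls and 16.9 to 57.1 in the TAZ-CCl4 libraries. Syvn1 fell by 0.96 ± 0.20 (limma, adjusted p = 0.00214), with the sign turned and no call at equal totals (0.29). Cul3, the scaffold of the KEAP1 ligase, fell by 0.80 and Sqstm1, the autophagy adaptor that can sequester KEAP1, fell by 0.84, but both were called higher at equal totals, at 0.45 and 0.41, and the sign for Sqstm1 also turned after quantile normalisation, at 0.26 and uncalled. Mafg, Cul3 and Sqstm1 were named after their values were seen.

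Of 33 further genes listed as NRF2 targets, 32 were tested, 5 rose and 15 fell, with a median log2 fold change of -0.63, beside 32.4% higher, 29.8% lower and a median of 0.03 over all tested genes. The count of rises was 8 without TAZ-CCl4 replicate 2, beside 4586 of all 14171 tested genes. At equal totals 15 were higher and 4 lower, beside 76.3% and 6.37% of all tested genes, and after quantile normalisation 8 and 6, beside 27.8% and 29.8%. The 5 that rose were Abcc4, G6pdx, Ptgr1, Akr1b8 and Cbr1. Abcc4, an efflux pump of the sinusoidal membrane, rose from 34.1 ± 12.6 (SD, n = 3) to 1096 ± 576 (SD, n = 5), and the log2 fold change was 4.88 ± 0.38 (limma, adjusted p = 3.03e-06). G6pdx, the entry enzyme of the pentose phosphate pathway, rose from 58.3 ± 4.07 to 288 ± 36.4, by 2.28 ± 0.17 (limma, adjusted p = 2.80e-06).

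The largest falls were those of Me1, the cytosolic malic enzyme, from 4283 ± 190.5 to 587 ± 227, and Gstp1, a glutathione transferase, from 66822 ± 9047 to 10552 ± 3004. Log2 fold changes were -2.96 ± 0.29 and -2.70 ± 0.25 (limma, adjusted p = 1.47e-05 and 9.04e-06), and both were lower under each of the 5 scalings. Glutathione transferase genes have near-identical copies, so their single-gene values are uncertain. In this list replicates 3 and 5 were each the highest TAZ-CCl4 library for 13 of the 32 genes, against 22.2% and 14.2% of all tested genes, and replicate 2 was the lowest for 19, against 24.2%.

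**Figure D5:**
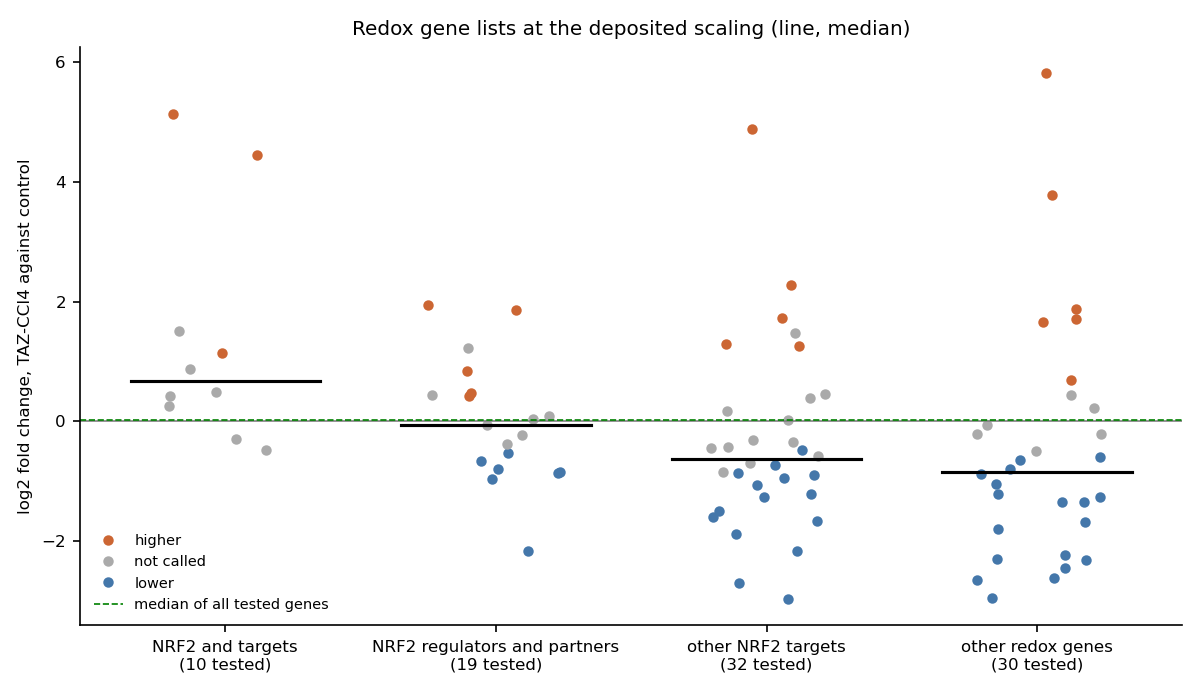
Log2 fold change at the deposited scaling for the genes of 4 lists, each point a tested gene coloured by its call, with a line at the list median and a dashed line at the median of all tested genes (0.03). The medians are 0.68, -0.07, -0.63 and -0.84 from left to right, and at equal totals they are 1.93, 1.18, 0.62 and 0.41, beside 1.26 over all tested genes.

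Of 30 other redox genes, 6 rose and 18 fell, with a median log2 fold change of -0.84, beside 32.4%, 29.8% and 0.03 over all tested genes. When totals were made equal 16 were higher and 7 lower, beside 76.3% and 6.37%, and by quantile normalisation 9 and 14, beside 27.8% and 29.8%. The largest rises were those of Ggt1, which breaks down extracellular glutathione, and Gpx3, the secreted glutathione peroxidase. Ggt1 measured 9.39, 0 and 3.92 in control livers, against 239.7, 118, 78.0, 964 and 179.6 in TAZ-CCl4 replicates 1 to 5, with replicate 4 apart. Its treated mean was 316, and 154 without replicate 4, its control mean was 4.43, and 1.96 without control replicate 1. Its log2 fold change was 5.81 ± 0.87 (limma, adjusted p = 2.20e-04), 4.87 without control replicate 2 and 6.55 without control replicate 1. The summed cholangiocyte markers were also highest in replicate 4, through Spp1, while without Spp1 the sum was highest in replicate 1 (6873), with 4730.3 in replicate 4. Their part in the values of Ggt1 was not tested. Gpx3 rose from 95.5 ± 8.95 (SD, n = 3) to 1637 ± 1121 (SD, n = 5), by 3.78 ± 0.52 on the log2 scale (limma, adjusted p = 1.24e-04).

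The largest falls were those of Cth, which makes cysteine from cystathionine, from 10403 ± 1629 to 1465 ± 621, and Msra, a methionine sulfoxide reductase, from 4119.6 ± 199 to 680.2 ± 171. Log2 fold changes were -2.95 ± 0.36 and -2.64 ± 0.21 (limma, adjusted p = 5.64e-05 and 4.11e-06), and -1.70 and -1.39 at equal totals. Among well known antioxidant enzymes, the catalase gene Cat had a log2 fold change of -2.45 and the superoxide dismutase gene Sod1 one of -2.24, and both were lower under each of the 5 scalings. Both were chosen as examples after their values were seen.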

How the data were processed

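For each gene and library the table gives a count divided by a size factor, which is a normalised signal that the authors made with kallisto and DESeq2, by the name of the deposited table. DESeq2 and the mm10 build are also given per the submitters' processing notes, and the sources used here name no version, annotation or filter. Of the values below 10, 47.3% to 66.7% per library lay within 0.03 of a whole multiple of the most frequent low value. The reads behind a value could not be rebuilt from that, so count models were left out and the read depth is unknown.

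Values were taken as log2(value + 1), on which fold changes of low genes are understated. The 14171 genes with a mean of at least 10 were compared by limma 3.58.1 in R 4.3.3, using the intensity-trended prior and no covariate, and p-values were adjusted by Benjamini-Hochberg over all of them at 0.05. The procedure was first tested on simulated data of 14171 genes. It recovered 6% of 1.5-fold, 54% of 2-fold, 80% of 4-fold and 88% of 8-fold changes, with 7 false calls. The cutoff set by the adjustment depends on how many genes change, so these rates describe the simulation only. Recovery in the deposited data was not tested. A gene that did not pass may still have changed by 1.5-fold or 2-fold. Ratios within a library were compared by an exact permutation test. The members, lists, ratios, motifs and the naming rule (all 10 members, and from each other list the 2 largest rises and falls that were called, did not overlap and reached a mean of 50) were chosen with earlier results of these data known. Positions are from GENCODE M21, and promoter windows from RefSeq, with both on GRCm38. Alternatives were other pseudocounts, filters and scalings, no trend, a replicate block and leaving out each library.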

Additional observations from a re-analysis of the deposited data

Results flagged for a closer look

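In 5 of 35 values examined, 1 of the 5 TAZ-CCl4 libraries stood apart from the other 4, by a gap over range above 0.71 (Dixon's test). That cutoff flags about 1 in 20 independent, normally distributed values. These are untransformed levels and ratios that share libraries and genes, so the count of 5 cannot be set against that rate. Replicate 1 stood apart at the high end for Wwtr1 (9021 normalised counts), Maff (810.1) and Slc3a2 (2123). Replicate 4 stood apart for Ggt1, at 964 normalised counts, and replicate 2 for the ratio of Gclm to Gclc, at 1.46. None of the 10 NRF2 genes was flagged in this way by its own level.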

How the results depend on the processing

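Hmox1, Gpx2 and Cbr3 were called higher under each of the 18 alternatives, with adjusted p-values of at most 0.00630, 0.00484 and 4.94e-04. Pseudocounts of 0.5 and 5, no filter or a mean of at least 50, and limma without the trend left the number of members called at 3 higher and 0 lower. Leaving out 1 library each gave 3 to 5 members higher, 5 to 8 other targets higher and 4015 to 4586 genes higher over the whole table. The scalings moved the counts. At equal upper quartiles 7 members and 5628 of all genes were higher. At equal totals 9 members, 17 regulators, 15 other targets, 16 other redox genes and 10808 of all genes were higher, and 1 regulator, 4 other targets, 7 other redox genes and 903 of all genes lower. Without Mup and mitochondrial genes in those totals the counts were 9, 11, 11, 11 and 8912 higher, and 1, 7, 11 and 1512 lower. After quantile normalisation 6 members, 8 other targets and 3941 of all genes were higher, and 3 regulators, 6 other targets and 4227 of all genes lower. The sign turned for Gclc (0.78, 0.36 and 0.52) and Gclm (0.97, 0.55 and 0.52) at equal totals, at totals that leave out Mup and mitochondrial genes and after quantile normalisation, for Keap1 at the first 2 (0.60 and 0.18) and for Syvn1 at the first (0.29). The turns at the equal totals come with a shift of the median of all genes to 1.26 and 0.85, while after quantile normalisation that median was -0.05, and the cause of the turns there was not tested. With the replicate number as a block, on the 6 libraries whose numbers both groups share, 3 members were higher and 0 lower and 3791 genes higher and 3575 lower, and Mafk lost its call (adjusted p = 0.0502). The deviations of libraries with the same number correlated at -0.09 to -0.06, and those with different numbers at -0.09 to 0.07. None correlated best with its own number. With 3 same-number pairs and deviations taken from small group means, this cannot settle whether the numbers pair the libraries. The 3 controls limit the precision of low values such as those of Gpx2.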

Other observations

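The level profile over the 8 libraries was set against those of 11556 other genes, as the root mean square difference of log2 values centred on each gene's mean. The genes most like Nfe2l2 were Tm9sf4, Ppp1r12b and Nudt4, at 0.08, 0.10 and 0.11 on the log2 scale. None of the 3 was called between the groups (limma, adjusted p = 0.0722, 0.175 and 0.288). The genes most like Nqo1 were Eif4e3, Usp20 and Slc5a3, at 0.34, 0.34 and 0.35. This measure is not divided by a gene's own spread. The SD of log2 values among the TAZ-CCl4 libraries was 0.92 for Nqo1 and 0.25 for Nfe2l2, so the distances for Nqo1 and Nfe2l2 cannot be compared. Usp20 measured 168, 209 and 177 in control livers, against 370, 257, 516, 271 and 565 in TAZ-CCl4 replicates 1 to 5, with replicates 3 and 5 the highest, as for Nqo1. Likeness over 8 libraries is a description and shares the same libraries and scaling.

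Among the other targets, Gstm3 had a wide range in treated livers. It measured 2456, 1982 and 2226 in control livers, against 1085, 306, 7765, 5926 and 6220.1 in TAZ-CCl4 replicates 1 to 5, so that replicates 1 and 2 were below all controls and replicates 3, 4 and 5 above. Its log2 fold change was 0.17 ± 0.93 (limma, adjusted p = 0.885). Gsta1 measured 216, 408 and 297 in control livers, against 435, 299, 1938, 738 and 2035 in TAZ-CCl4 replicates 1 to 5 (limma, adjusted p = 0.0530). Both were named after their values were seen, and near-identical copies make single values of this family uncertain.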
